A study of Mus musculus with 6 samples.

Results

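The genes described here build and drive motile cilia, and mark the ciliated cells of the airway. A list of 41 such genes was matched by symbol to the probe sets of an Affymetrix mouse array that the platform annotation assigns to exactly 1 gene. Of the 41 genes, 39 had at least 1 such probe set, among 18193 genes on the array, and these 39 had 52 probe sets in all. Lrriq1 and Sntn had none and were not analysed here. A filter on dim probe sets kept 37 of the 39 genes, and Efhc2 and Spag17 fell below it.

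RNA came from whole lung, and each of the 6 arrays held a pool of 3 mice. The 8 week and the 1 week groups were mice with an inducible dominant-negative BMP type 2 receptor (dnBMPR2) driven through the SM22 promoter of smooth muscle, activated for 8 weeks or 1 week before death. The control group carried the transactivator alone (SM22-rtTA), per the series description, with no activation time given. Each group held 1 female and 1 male pool. The male control's label named the transactivator; for the female control the label held sex and strain (FVB/N) and no genotype. The strain of the other pools, the age of the mice and the inducer given to controls were not stated in the sources used here. The series description reports a higher right ventricular pressure in mice with the transgene. SM22 is a smooth muscle gene, and its promoter is used to aim a transgene at smooth muscle rather than at airway epithelium. The labels describe how tissue was frozen and extracted for the transgenic pools and not for the controls, so handling and genotype cannot be told apart.

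Motile cilia are whip-like organelles that sweep mucus along the airway. Each is built on an axoneme, a ring of microtubule doublets around a central pair of microtubules. Dynein arms make the doublets slide, radial spokes and the central pair set the beat, and the nexin-dynein regulatory complex ties the doublets together. The transcription factors Foxj1, Rfx2 and Rfx3 switch on most genes of this kind. In the lung, motile cilia stand on ciliated cells of the conducting airways, next to club and other secretory cells.

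Values are log2 intensities after quantile normalization between arrays, with a floor at 3.95, and each gene is given at its brightest kept probe set. Where values come in twos, the female pool comes first. The 37 genes were at or above 4.11 on every array, and none was at the floor. Ciliated cells make up a small part of the lung, and in whole tissue fewer ciliated cells and less RNA per ciliated cell cannot be told apart.

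The clearest difference was between the 2 durations. Motile cilium genes stood lower at 8 weeks than at 1 week almost without exception: 34 of 37 were lower in both sexes, against 29.3% of the 13215 genes measured. For 33 of 37, both 8 week pools lay below both 1 week pools, against 15.7% of all genes, and the opposite held for none of the 37 and 24.1% of all genes. The median log2 difference, 8 weeks minus 1 week, was -0.95 for the 37 genes (-0.93 in females and -0.88 in males) and 0.04 for all genes. The middle of the list was therefore at 0.516 of its 1 week intensity, taking Mns1, which held that median. The 3 genes that were not lower in both sexes were Rfx3, Spef2 and Armc4.

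No single gene passed the test in this comparison. In limma, with group and sex as terms and Benjamini-Hochberg adjustment over 27022 probe sets, 0 of the 37 genes and 0% of all probe sets had an adjusted p below 0.05. The smallest adjusted p among the 37 was 0.106. With limma's trend and robust settings 14 of the 37 passed, and 2.78% of all probe sets did. At an unadjusted p below 0.05, 30 of the 37 were lower, against 6.89% of all genes, and none was higher, against 10.1%. The fit has 2 residual degrees of freedom, and its spread is how far the female and male differences between groups disagree.

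**Figure D1:**
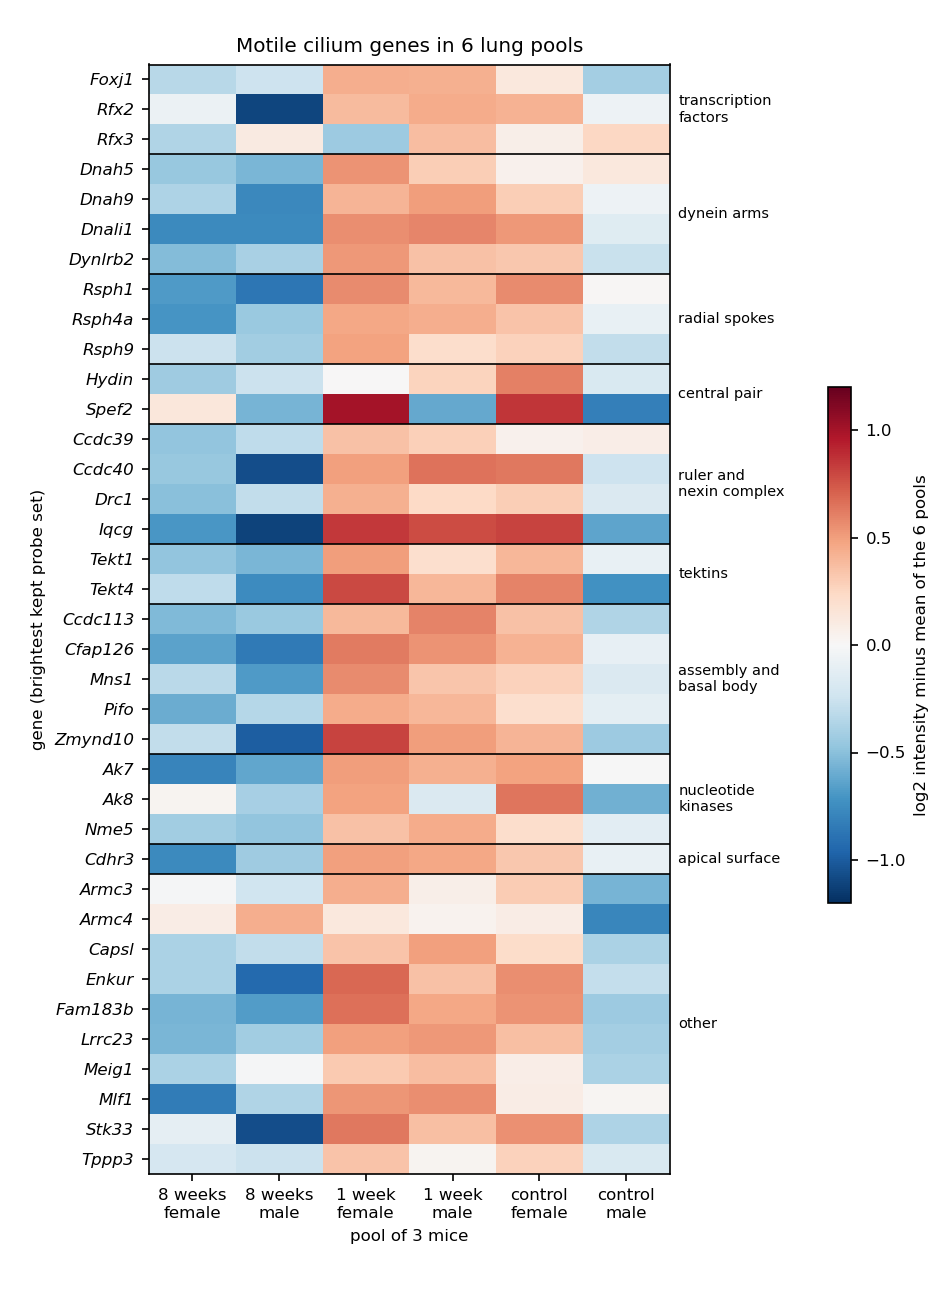
Log2 intensity of 37 motile cilium genes (rows, by role) in the 6 lung pools (columns, each a pool of 3 mice), drawn as the difference from each gene's mean over the 6 pools. Both 8 week columns are mostly blue (low), both 1 week columns and the female control mostly red (high), and the male control lies between. In the male control 34 of 37 genes were lower than in the female control (47.9% of all genes).

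The ruler and the nexin-dynein regulatory complex space and link the doublets. Iqcg, a component of that complex and the gene with the widest difference of the 37, had log2 intensities of 4.52 and 4.11 at 8 weeks, 6.06 and 6.0 at 1 week, and 6.03 and 4.58 in controls. Both 8 week pools were low and both 1 week pools high, while the female control lay with the 1 week pools and the male control just above the 8 week pools. Its difference between 8 weeks and 1 week was -1.72 ± 0.35 (± moderated standard error, n = 2 pools a group, limma adjusted p = 0.143). Ccdc40, which with Ccdc39 forms the ruler that sets the axonemal repeat, stood at 5.71 and 5.09 at 8 weeks, 6.65 and 6.81 at 1 week, and 6.79 and 5.91 in controls. Ccdc39 differed by -0.71 and the complex member Drc1 by -0.74 (8 weeks minus 1 week). All 4 genes of this group had both 8 week pools below every 1 week and control pool.

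Dynein arm genes were lower at 8 weeks by similar amounts. Dnali1, an inner arm light intermediate chain, had 7.08 and 7.08 at 8 weeks, 8.40 and 8.43 at 1 week, and 8.36 and 7.70 in controls, a difference of -1.34 ± 0.22 between 8 weeks and 1 week. The pools of a duration agreed closely while the durations did not overlap. A second Dnali1 probe set differed by -1.55. The outer arm heavy chain Dnah9 differed by -1.03, the outer arm heavy chain Dnah5 by -0.92 and the light chain Dynlrb2, which serves ciliary dyneins, by -0.89.

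Radial spoke genes followed, with a median difference of -1.03 between 8 weeks and 1 week. Rsph1, a protein of the spoke head, had 7.70 and 7.51 at 8 weeks, 8.94 and 8.76 at 1 week, and 8.94 and 8.39 in controls. It was low in both 8 week pools against all 4 others. Rsph4a differed by -1.03 and Rsph9 by -0.68, both also spoke head proteins.

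Genes of cilium assembly and the basal body were lower at 8 weeks than at 1 week in all 5 cases. Cfap126 (Flattop), which helps place basal bodies at the cell surface, had 8.38 and 8.18 at 8 weeks, 9.65 and 9.57 at 1 week, and 9.44 and 8.93 in controls. Its 8 weeks minus 1 week difference was -1.33 ± 0.16 (limma adjusted p = 0.106), an intensity 0.398 of that at 1 week. Zmynd10, needed to assemble dynein arms before they enter the cilium, had 6.51 and 5.82 at 8 weeks, 7.62 and 7.31 at 1 week, and 7.21 and 6.38 in controls. In Zmynd10 both durations were apart from each other, but the male control lay below the female 8 week pool. Mns1 had 6.46 and 6.11 at 8 weeks, 7.36 and 7.13 at 1 week, and 7.07 and 6.62 in controls. Pifo, a protein of the ciliary base, had 7.46 and 7.71 at 8 weeks, 8.50 and 8.45 at 1 week, and 8.26 and 7.93 in controls. Both genes had 1 week highest and 8 weeks lowest with no overlap between any of the 3 groups, and Ccdc113 differed by -0.98 between 8 weeks and 1 week.

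**Figure D2:**
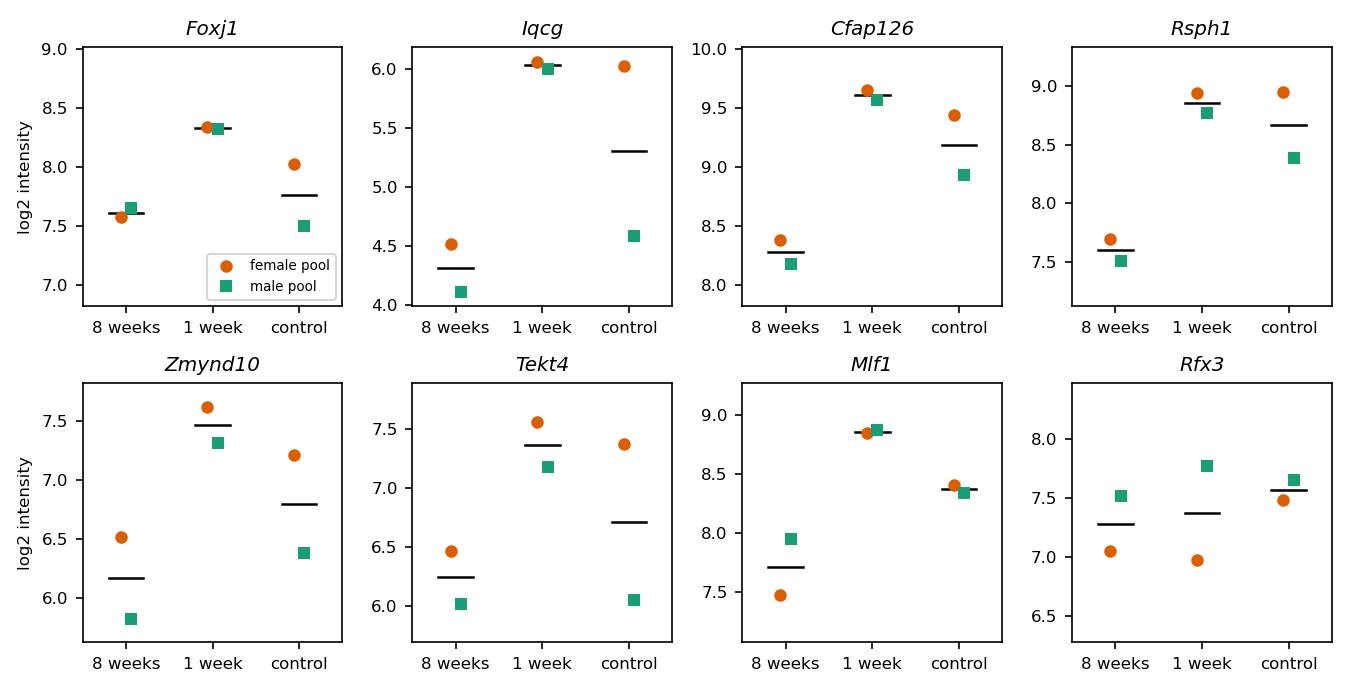
Log2 intensity of 8 genes in each pool (orange circles female, green squares male; black bars are means of 2 pools), for 8 weeks, 1 week and control from left to right, each panel on its own range. In the first 7 genes both 8 week pools lie below both 1 week pools, and in Rfx3 the durations overlap.

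The transcription factors were less uniform. Foxj1, the main switch of the motile cilium programme, had 7.57 and 7.66 at 8 weeks, 8.34 and 8.33 at 1 week, and 8.03 and 7.50 in controls. The 8 week and 1 week pools were apart, by -0.72 ± 0.20, while the control pools spanned the 8 week values. Rfx2 had 5.45 and 4.41 at 8 weeks, 5.90 and 5.96 at 1 week, and 5.93 and 5.46 in controls. The male 8 week pool was the low one, and the 8 weeks minus 1 week difference of -1.0 ± 0.28 was -0.45 in females and -1.55 in males. This split rests on 1 kept probe set. Of the dim Rfx2 probe sets below the filter, 1 gave -0.85 in females and -0.08 in males. Another gave -0.06 and -1.04, and the last was at the floor on every array. Rfx3, which unlike Foxj1 is also used in cells with a single non-motile cilium, had 7.05 and 7.51 at 8 weeks, 6.98 and 7.77 at 1 week, and 7.48 and 7.65 in controls. The 3 groups overlapped, and its difference between the durations was -0.10 ± 0.19.

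Other members described by what they do ranged more widely. Tektins, filaments inside the doublet wall, differed by -1.13 (Tekt4) and -0.87 (Tekt1) between 8 weeks and 1 week. The adenylate kinase Ak7, which supplies energy to the axoneme, differed by -1.18, its relative Ak8 by -0.34 and the nucleoside diphosphate kinase family member Nme5 by -0.84. Of the central pair genes, Hydin differed by -0.48 and Spef2 by -0.40, the smallest of the role groups by median (-0.44, 2 genes). Cdhr3, a cadherin of the ciliated cell surface, differed by -1.07. Among 10 further genes, differences ran from -1.18 (Fam183b) to 0.18 (Armc4). In between, Mlf1 stood at -1.15, Enkur at -1.17 and Stk33 at -1.08. Tppp3, a tubulin-binding protein with the brightest probe set of the list, differed by -0.42.

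Some of these genes share sequence at their start sites. RFX factors bind a palindrome known as the X-box, and RefSeq promoters of 300 bases (GRCm38.p6, from 250 before the start) were matched for 34 of the 41 genes. Those not matched were Foxj1, Tppp3, Rsph1, Rsph4a, Armc4, Nme5 and Stk33. The full X-box, on either strand and with up to 3 bases between its arms, was found for 5 of 34 genes (14.7%) and for 1.75% of 27025 genes with a promoter. Its half-site GTTGCC, on either strand and also counted inside a full X-box, was found for 20 of 34 (58.8%) and for 14.1% of all genes. The forkhead letters TGTTTA were found for 26.5% against 15.1%, and TGTTTGC for 11.8% against 5.76%, on either strand. These are matches of letters and not measured binding. The promoters below show a full X-box close to the start in a gene that stood lower at 8 weeks (Dynlrb2), the X-box of Spef2, and 2 half-sites in Iqcg, the gene with the widest difference. Spef2 is shown as the gene that passed between the sexes, and the others were chosen after their matches were seen. They lie at chr8:116504765-116505064 (plus strand), chr15:9748819-9749118 (minus strand) and chr16:33056137-33056436 (minus strand), are written 5′ to 3′ along the gene, and capitals mark the X-box in the first and second and the half-site in the third.
Dynlrb2: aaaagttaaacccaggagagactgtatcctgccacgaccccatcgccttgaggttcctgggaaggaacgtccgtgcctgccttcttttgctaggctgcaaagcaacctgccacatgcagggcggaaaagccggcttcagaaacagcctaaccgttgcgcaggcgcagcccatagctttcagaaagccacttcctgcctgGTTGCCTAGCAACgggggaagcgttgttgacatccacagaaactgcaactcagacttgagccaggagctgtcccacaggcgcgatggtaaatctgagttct
Spef2: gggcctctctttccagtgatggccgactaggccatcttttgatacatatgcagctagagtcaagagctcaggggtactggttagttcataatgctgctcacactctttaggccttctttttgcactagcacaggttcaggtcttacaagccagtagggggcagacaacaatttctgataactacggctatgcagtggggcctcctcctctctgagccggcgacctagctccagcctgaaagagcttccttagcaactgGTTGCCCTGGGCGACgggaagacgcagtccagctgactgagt
Iqcg: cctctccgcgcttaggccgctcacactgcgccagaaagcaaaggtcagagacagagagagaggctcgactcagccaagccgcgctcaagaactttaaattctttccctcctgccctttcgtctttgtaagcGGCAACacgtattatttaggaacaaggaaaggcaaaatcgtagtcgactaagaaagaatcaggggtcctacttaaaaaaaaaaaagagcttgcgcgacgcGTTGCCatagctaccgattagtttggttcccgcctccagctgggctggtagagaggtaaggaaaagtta
The X-box of Dynlrb2 runs from base -51 to -39 of the start and that of Spef2 from 8 to 22, counted from the first transcribed base as 0. Hydin, Lrrc23 and the unmeasured Lrriq1 held the others. The 4 measured genes with an X-box had a median 8 weeks minus 1 week difference of -0.68, and the 26 measured genes with a promoter and no X-box -0.99.

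Against control, 8 week lungs were lower for most of the list. Of 37 genes, 30 were lower in both sexes (25% of all genes were), and 25 had both 8 week pools below both control pools (14.1% of all genes). The median log2 difference was -0.55 (-0.80 in females and -0.33 in males), against 0.08 for all genes. In limma, 0 of the 37 passed at an adjusted p below 0.05, where 0.596% of all probe sets did (0.207% higher and 0.389% lower). At an unadjusted p below 0.05, 21 were lower (6.26% of all genes) and none was higher (13.8%). Ranked by whichever sex differed less, the 3 lowest were Rsph1 at -1.06 ± 0.16 (limma adjusted p = 0.0711, the smallest of the list), Ccdc40 at -0.95 ± 0.28 (0.153) and Cfap126 at -0.90 ± 0.16 (0.0863). Over the alternative settings, adjusted p for Rsph1 in limma ran from 0.0116 to 0.243 and for Cfap126 from 0.0146 to 0.263, with a lower value at 8 weeks in every case.

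A single gene, Armc4, an outer dynein arm docking protein, stood above control at 8 weeks, by next to nothing in females. It was the 1 gene counted as higher in both sexes (42.2% of all genes) and as higher without overlap (27.2%). It had 6.79 and 7.14 at 8 weeks, 6.83 and 6.74 at 1 week, and 6.79 and 5.92 in controls. The male control was its low value, the female 8 week and control pools were level, and the difference of 0.61 ± 0.31 between 8 weeks and control had a limma adjusted p of 0.31. Foxj1 stood at -0.15 ± 0.20 against control (-0.45 in females and 0.16 in males). The fold between 8 weeks and control was therefore 0.903 for Foxj1 beside 0.479 for Rsph1 and 0.534 for Cfap126. Rfx2 was at -0.76 ± 0.28 and Rfx3 at -0.29 ± 0.19.

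At 1 week, most of the list stood above control, by less. Of 37 genes, 31 were higher in both sexes (32.6% of all genes), none was lower in both (21.1%), and 18 had both 1 week pools above both control pools (15.1%), with none below (7.79%). The median log2 difference was 0.38 (0.13 in females and 0.56 in males), against 0.03 for all genes. In limma, 0 of the 37 and 0% of all probe sets passed, with a smallest adjusted p of 0.894 in the list, and 5 of the 37 were higher at an unadjusted p below 0.05 (3.59% of all genes) and none lower (0.946%). Every one of the 5 assembly and basal body genes and the 4 dynein arm genes had its 1 week pools above both controls.

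Ranked in the same way, the 6 highest were Mlf1, Zmynd10, Foxj1, Mns1, Pifo and Meig1. Mlf1, a ciliated cell gene first known from leukaemia, had 7.47 and 7.95 at 8 weeks, 8.84 and 8.87 at 1 week, and 8.40 and 8.34 in controls. Its 3 groups did not overlap and its control pools were close, so its 1 week difference from control of 0.48 ± 0.18 was alike in females (0.44) and males (0.53). Zmynd10 was at 0.67 ± 0.18 between 1 week and control, Foxj1 at 0.57 ± 0.20, Mns1 at 0.40 ± 0.14 and Pifo at 0.38 ± 0.18. Meig1, a gene of sperm and airway cilia, had 6.90 and 7.27 at 8 weeks, 7.60 and 7.65 at 1 week, and 7.36 and 6.90 in controls. Rfx3 (-0.19) and Hydin (-0.07) were the 2 genes with a value below 0, and neither was lower in both sexes. The same control pair serves both durations, so the 1 week and 8 week differences from control are not independent.

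**Figure D3:**
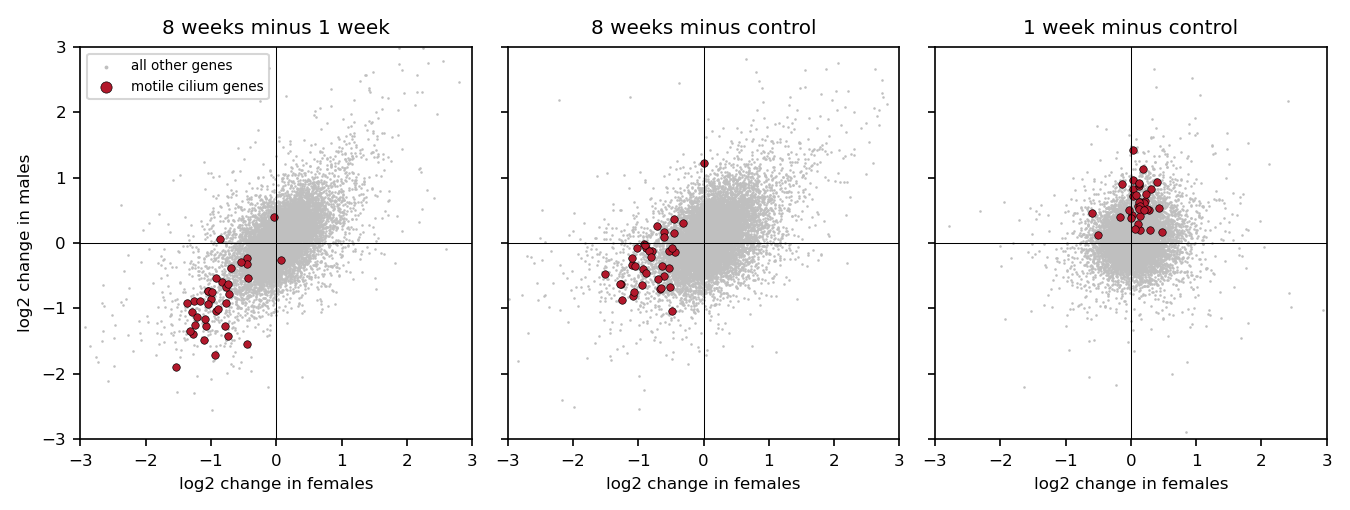
Log2 change in females (x axis) against males (y axis) for 37 motile cilium genes (red) and all other genes (grey), for 8 weeks minus 1 week, 8 weeks minus control and 1 week minus control; genes beyond 3 on either axis are not drawn. The red points gather low in both sexes between the durations (median -0.95), spread along the female axis against control at 8 weeks (-0.80 in females and -0.33 in males), and lie mostly above 0 in both sexes at 1 week, by less in females (0.13 in females and 0.56 in males).

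The control pools themselves differed for this list. The female control was higher than the male control in 34 of 37 genes (47.9% of all genes), with a median difference of 0.56, while the median of all genes was -0.02. The 2 pools of the other groups were closer, with median female minus male differences of 0.05 at 8 weeks and 0.08 at 1 week. The widest gaps between the control pools were those of Spef2 (1.68), Iqcg (1.45) and Tekt4 (1.32). Against the female control alone, 18 of the 37 genes were higher in both 1 week pools (36.4% of all genes), and 35 were lower in both 8 week pools (26.1%). Against the male control alone, 36 were higher in both 1 week pools (36.4%), and 26 were lower in both 8 week pools (28%). Without the male control pool the 1 week median was 0.12, and without the female control 0.60; the 8 week medians were -0.79 and -0.31. The difference between 8 weeks and 1 week uses neither control, and its median without any 1 pool ran from -1.02 to -0.77. The female and male controls also differ in what their labels state, and genotype, strain and sex cannot be told apart there.

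By pool, the mean log2 intensity of the list was 7.0 and 6.89 at 8 weeks, 7.89 and 7.76 at 1 week, and 7.78 and 7.16 in controls. The female 1 week pool held the highest value for 22 of 37 genes (13% of all genes), the male 1 week pool for 11 (13.6%), the female control for 3 (11.5%) and the male 8 week pool for 1 (27.7%). The lowest value was in the male 8 week pool for 18 (17.7% of all genes), the female 8 week pool for 11 (16%), the male control for 7 (20.1%) and the female 1 week pool for 1 (15.1%). The male control was thus the lowest pool about as often as over all genes.

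Averaged over the groups, the median female minus male difference of the list was 0.21, against -0.02 for all genes. It was 0.08 without the female control pool, and 0.32 and 0.33 without the female and the male 8 week pool. In sign, 15 genes were higher in all 3 groups (25% of all genes) and 1 lower (31.4%). At an unadjusted p below 0.05, 8 were higher (10.9%) and 1 lower (17.9%). For 2 genes all female pools lay above all male pools (13.1% of all genes), and for 1 below (19.2%). Spef2, a central pair protein, was the 1 gene that passed in limma, at 1.33 ± 0.23 (adjusted p = 0.0416), where 8.3% of all probe sets passed (3.46% higher and 4.85% lower in females). It had 6.17, 7.03 and 6.89 in the female 8 week, 1 week and control pools, against 5.48, 5.42 and 5.21 in the male pools. All female pools lay above all male pools, and its adjusted p in limma ran from 0.0137 to 0.209 over the alternatives. It did not pass in limma without the female or male control pool (adjusted p = 0.13 and 0.131), without the female or male 1 week pool (0.209 and 0.201) or with no filter on dim probe sets (0.158). The sex difference of Spef2 rests on its 1 kept probe set. Of 2 others below the filter, 1 was at the floor on every array. The other, near the floor, was not higher in females throughout, with 3.95, 4.80 and 4.17 in females against 3.95, 4.62 and 4.56 in males. Ak8 was at 0.77 ± 0.18 (adjusted p = 0.0741 in limma), with 6.51, 6.96 and 7.12 in females against 6.08, 6.30 and 5.90 in males. Tekt4 was at 0.72 ± 0.22, with 6.46, 7.56 and 7.37 in females against 6.02, 7.17 and 6.05 in males, where the female 8 week pool lay below the male 1 week pool. Rfx3 was the gene lower in females in all 3 groups, at -0.48 ± 0.16. The test of whether the change with the transgene differed between the sexes took both durations together as transgenic. Its spread therefore holds the difference between the durations, which was wide for this list, so it could hardly call these genes. For Cfap126 the standard error was 1.12 there and 0.16 for 8 weeks minus 1 week. It called 0 of 37 genes and 0% of all probe sets in limma. At an unadjusted p below 0.05, 1 of the 37, Armc4, was lower (0.575% of all genes, and 0.832% higher). The median interaction was -0.52 for the list and -0.01 for all genes. Whether the sexes differed in their change is not settled by this test.

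Genes outside the list showed how far the pattern reached. Of 42 other kept genes of the motile axoneme, 38 were lower at 8 weeks than at 1 week in both sexes (29.3% of all genes). Their median was -0.87 and none passed in limma. At an unadjusted p below 0.05, 28 were lower (6.89% of all genes). Spag16, a central pair protein, stood at -1.73, the axonemal gene Ttc29 at -1.44, and Cfap52 and Cfap54 at -1.42 each. Of 12 dynein arm assembly factors, 9 were lower in both sexes (median -0.38), with Dnaaf1 at -1.33, Lrrc6 at -1.17, Dnaaf4 at -0.71 and Dnaaf5 at -0.63. The other factors ran from Ccdc103 at -0.62 and Pih1d2 at -0.46 to Pih1d1 at 0.19. Between them lay Ruvbl2 at -0.30, Cfap298 at -0.24, Spag1 at -0.22, Dnaaf2 at 0.03 and Ruvbl1 at 0.06.

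The other cilium lists had medians nearer 0, both those shared with non-motile cilia and that of multiciliation. For intraflagellar transport genes, which carry cargo along every kind of cilium, it was -0.17 between 8 weeks and 1 week, with 18 of 28 lower in both sexes. For genes of the BBSome and transition zone, the gate at the ciliary base, it was -0.21, with 13 of 23 lower in both sexes. Both counts lay above the share of all genes lower in both sexes (29.3%). For the multiciliation programme, which makes the many basal bodies of a ciliated cell, it was -0.06. In this list 3 of 11 were lower in both sexes and 4 higher (29.3% and 40.8% of all genes). In it Myb stood at -0.91, Ccno at -0.45 and E2f5 at -0.35, each lower in both sexes. Those higher in both were the centriole genes Plk4 (0.57), Cep152 (0.51) and Sass6 (0.48), which dividing cells also use, and Trp73 (0.27). None of these genes passed between 8 weeks and 1 week in limma. At an unadjusted p below 0.05 there were 5 lower and 1 higher for intraflagellar transport, 3 lower and 0 higher for the BBSome list, and 2 lower and 2 higher for multiciliation. Of all genes, 6.89% were lower and 10.1% higher at that threshold. Between the sexes, 383 of all 13215 genes passed in limma as higher in females and 629 as lower. Of the 42 axoneme genes 4 passed as higher, Drc3 (1.19), Fank1 (0.94), Cfap65 (0.84) and Ccdc114 (0.74), and none as lower. Of the 11 multiciliation genes E2f5 (1.17) passed as higher, and of the 23 BBSome and transition zone genes Bbs10 (2.27) and Bbs4 (0.55) passed as higher and Ofd1 (-0.74) as lower. In the marker lists of other cells, Krt15 of the club and secretory list (-1.14) and Acan of the cartilage list (-0.99) passed as lower in females. Nppa of the cardiac list passed as lower too, with all 3 female pools at the floor and 8.12, 6.78 and 7.16 in the male 8 week, 1 week and control pools.

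Markers of neighbouring airway cells were measured beside them. All 15 club and secretory airway markers were kept. At 8 weeks 12 were lower than at 1 week in both sexes (29.3% of all genes) and 2 higher (40.8%), with a median of -0.87. Their summed intensity was 34351 and 41101 at 8 weeks, 46437 and 50410 at 1 week, and 44720 and 42300 in controls. That sum is weighted to the brightest markers and includes Scgb1a1, which the normalization held equal on all arrays. Against control, the median of the list at 8 weeks was -0.48, with -0.70 in females and 0 in males. The widest differences between 8 weeks and 1 week were those of Bpifb1 (-3.75), Bpifa1 (-3.04), Reg3g (-2.71) and Scgb3a1 (-1.95). The female 8 week pool stood apart for this list: the secretory defence genes Bpifa1 and Reg3g were at the floor there and well above it elsewhere. Scgb3a1 had 8.01 and 11.91 at 8 weeks and 11.90 and 11.92 at 1 week, so its difference lay in females alone. In the male 8 week and 1 week pools Bpifa1 had 10.67 and 10.92, Reg3g 8.18 and 9.77, and Bpifb1 8.27 and 10.25. Other markers were low in both 8 week pools. Cldn10 had 7.82 and 7.80 at 8 weeks, 8.84 and 9.14 at 1 week, and 8.83 and 8.82 in controls. Gabrp had 9.48 and 9.65, 10.48 and 10.61, and 10.41 and 10.19 in the same order. The ciliated genes averaged 7.0 and 6.89 in the 8 week pools. Defining club cell genes lay near the top of the scale. Scgb1a1 was tied at 13.36 on all 6 arrays by the normalization. Cyp2f2 had 12.45 and 12.32 at 8 weeks, 12.91 and 12.88 at 1 week, and 12.91 and 12.81 in controls. The median of 8 genes common to all epithelia was -0.05 between 8 weeks and 1 week. Of 7 basal airway markers 3 were kept, and of 9 neuroendocrine and tuft cell markers 1. Mouse lung also holds cardiac muscle in the walls of its pulmonary veins. Of 9 cardiac muscle markers, 8 were lower at 8 weeks than at 1 week in both sexes (29.3% of all genes). Their median was -2.18 (-2.66 in females and -1.34 in males). Their summed intensities were 1283 and 4465 at 8 weeks, 9191 and 12191 at 1 week, and 8564 and 8326 in controls. Macrophage markers were higher in both sexes in 7 of 7 (40.8% of all genes), with a median of 2.29. Of 7 markers of choroid plexus and testis, other tissues with motile cilia or flagella, 1 was kept. What part the amount of airway in each pool, or the other cells in it, had in the ciliated cell values was not tested.

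**Figure D4:**
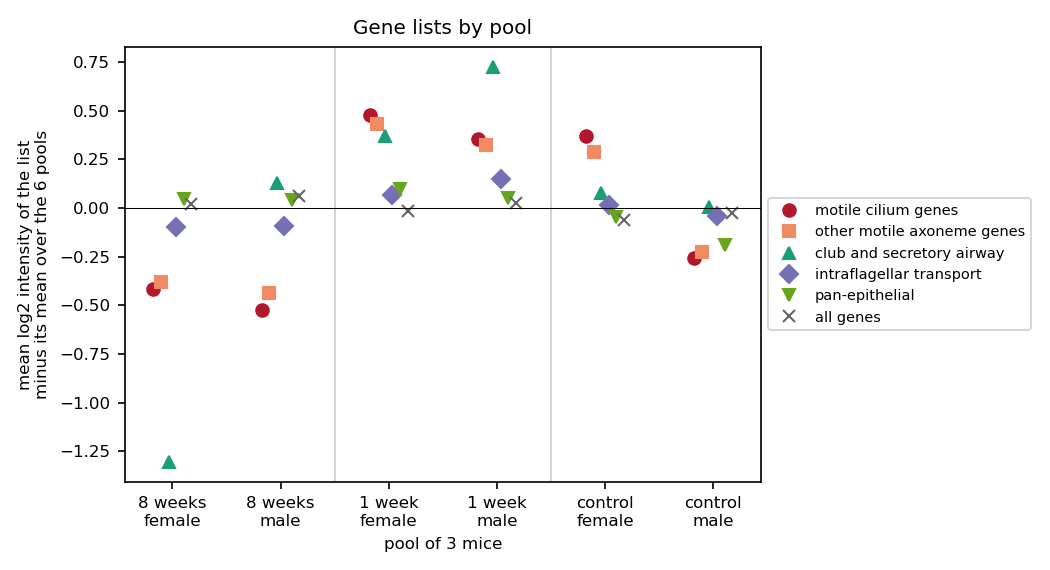
Mean log2 intensity of 6 gene lists in each pool, minus the list's own mean over the 6 pools, for 37 motile cilium genes, 42 other axoneme genes, 15 club and secretory markers, 28 intraflagellar transport genes, 8 pan-epithelial genes and all 13215 genes. Both axoneme lists lie low in both 8 week pools (-0.42 and -0.52 for the 37 genes) and high in both 1 week pools (0.48 and 0.35), and the club list is lowest in the female 8 week pool (-1.30).

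The dim members add little. Efhc2, a microtubule-binding protein, had 3.95 (the floor) and 4.56 at 8 weeks, 4.91 and 5.30 at 1 week, and 4.26 and 4.57 in controls. The 1 week pools were its highest and the female 8 week pool its lowest. Spag17, a central pair protein, had 2 probe sets between the floor and 4.78 on every array and gave no usable comparison. Armc3 and Dnali1 had 2 kept probe sets each, and both pairs had the same sign between 8 weeks and 1 week (-0.38 and -1.31 for Armc3).

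Bmpr2 has 3 kept probe sets, and whether they read the transgene is not given in the sources used here. The brightest had 11.79 and 11.84 at 8 weeks, 11.85 and 12.14 at 1 week, and 11.99 and 12.15 in controls. It differed from control by -0.26 at 8 weeks and -0.08 at 1 week. Another probe set differed from control by -0.93 at 8 weeks and -0.44 at 1 week, with every transgenic pool below both control pools. The last differed from control by 0.01 at 8 weeks and -0.22 at 1 week. The probe sets thus did not move alike, and why was not tested. Median deposited intensity was 50.49 and 52.92 at 8 weeks, 60.22 and 57.1 at 1 week, and 63.41 and 61.43 in controls, lower in both 8 week pools before normalization. With the intensities as deposited, the median difference of the 37 genes between 8 weeks and 1 week was -1.07, and with arrays centred on their medians -0.89.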

How the data were processed

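Whole-lung RNA from 6 pools of 3 mice was measured on 6 arrays, 1 female and 1 male pool a group. The authors deposited signal intensity values on a linear scale for 45037 probe sets, with a lowest value of 10 (11.1% to 12.5% of probe sets on each array). How they were summarised and scaled is not given in the sources used here. Here the 6 arrays were brought to one distribution (quantile normalization) and a floor was set at the 20th percentile of all values (15.46) before taking log2. The 27022 probe sets whose mean exceeded the 40th percentile were kept. Symbols came from the platform annotation. Each probe set was fitted in limma 3.58.1 (R 4.3.3) on all 6 arrays together, with a term for group and one for sex (prior degrees of freedom 2.77), and a second fit gave the interaction of transgene and sex. P-values were adjusted by Benjamini-Hochberg over all kept probe sets, with 0.05 as threshold. The fit was tested on simulated data. The number of arrays limits the precision, since 2 pools against 2 cannot go below p = 0.333 in an exact test.

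The genes, the other lists and the rules were chosen with earlier results of these data known. Values in every pool are given for Foxj1, Rfx2 and Rfx3, for genes that passed, for the 6 highest and 3 lowest against control and for the 3 at each end in the other comparisons, ranked by the smallest same-direction difference within sex or group. In the other lists up to 4 genes with the widest difference, and those that passed, are named. Other genes given with a value, and the promoters of Dynlrb2 and Iqcg, were added after their values were seen. Settings tried in place of these were no normalization, median centring, the floor moved to the 40th percentile, log2(value + 16) without a floor, no filter or one at the 60th percentile, suffixed probe sets left out, the mean of a gene's probe sets, no sex term, only the arrays compared, trend and robust moderation, and each array left out. Figures used Python 3.11.15 with matplotlib 3.10.9.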

Additional observations from a re-analysis of the deposited data

How the results depend on the processing

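The count of the 37 genes that passed at 8 weeks against control was 0, and became 1 as deposited, with log2(value + 16) or with the mean of a gene's probe sets, 2 when filtered at the 60th percentile and 4 with trend and robust moderation. Between 8 weeks and 1 week it was 0, and became 3 with the mean of a gene's probe sets and 14 with trend and robust moderation, where 2.78% of all probe sets passed. For female minus male it was 1, and became 0 with no filter, 2 when filtered at the 60th percentile and 3 with trend and robust moderation, and ran from 0 to 1 with an array left out. At 1 week against control it was 0 under each alternative. The median difference between 8 weeks and 1 week was -1.07 as deposited, -0.89 with arrays centred or with the floor at the 40th percentile and -0.84 with log2(value + 16), and ran from -1.02 to -0.77 with an array left out. Against the male control alone, an alternative added after seeing the data, 36 genes were higher in both 1 week pools, in place of 18. With an array left out, values crossed 0 for Foxj1 at 8 weeks (-0.43 to 0.14), Rfx2 at 1 week (-0.17 to 0.65) and Rfx3 at 1 week (-0.43 to 0.045) and between 8 weeks and 1 week (-0.34 to 0.15). The fit with an array left out has fewer residual degrees of freedom and assumes that the lone pool varies like the others. Why these values moved was not tested. The interaction could not be fitted without either control.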
